A study of Drosophila melanogaster with 7 samples.

Results

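The genes described here are 45 axon guidance and adhesion genes of Drosophila melanogaster, taken from a list of names of receptors, ligands and adhesion molecules. Of these, 9 are listed in the authors' deposited table, which holds 2366 genes in all, and 36 are not. The table compares RNA from dissected central nervous systems (central brain and ventral nerve cord) of larvae 4 days after egg lay at 25 °C, in the middle of the third instar. In 4 libraries elav-GAL4, a driver of neurons throughout the nervous system, was combined with UAS-ISWI RNAi, a hairpin against the ATPase Iswi of nucleosome remodelling complexes. The 3 control libraries carried elav-GAL4 and no hairpin, so the driver is common to both groups, and each library pooled at least 40 nervous systems. Each group is a single genotype, the header of the fold change column names the control attp2 where the labels give the driver alone, and effects of the hairpin and of the stocks cannot be told apart. The labels give no sex for the larvae. Glia and progenitors of the same tissue are in the libraries too, although the driver is used for neurons.

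Growing axons and dendrites read secreted and membrane-bound cues through receptors at their tips, and adhesion proteins decide which processes hold together or part. Netrins act through Frazzled and Unc-5, Slit acts through the Robo receptors to keep axons from the midline, and semaphorins act through plexins. Dscams, Fasciclin 2 and sidekick are immunoglobulin-family proteins that bind copies of themselves on other cells or other branches. In the larval nervous system these proteins act while embryonic circuits are in use and adult neurons extend their first processes.

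A single member passed the test. Dscam4 rose with the knockdown, 1 of 45 members, where 4.65% of the genes tested in the authors' deposited table were called in either direction and 2.06% were called higher and 2.59% lower. A gene is called here when the adjusted p of that table, from DESeq2, is under 0.05. The table lists genes with p under 0.1, and it holds 9 of the 45 members, against 21.5% of all genes tested, of which there were 10775 by the adjusted p-values. That share is near the background and shows nothing particular to these genes. Of the 9, 8 had a fold change above 0 and 1 below 0 in the authors' deposited table, and positive listed members are 17.8% of the 45, against 10.2% of all genes tested. Genes enter that table by their p, so counts over listed members describe that selection and are not support for a shift of the group. For a member with no entry, either p was at least 0.1 or the gene was not tested, and which of these holds is not known here.

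**Figure D1:**
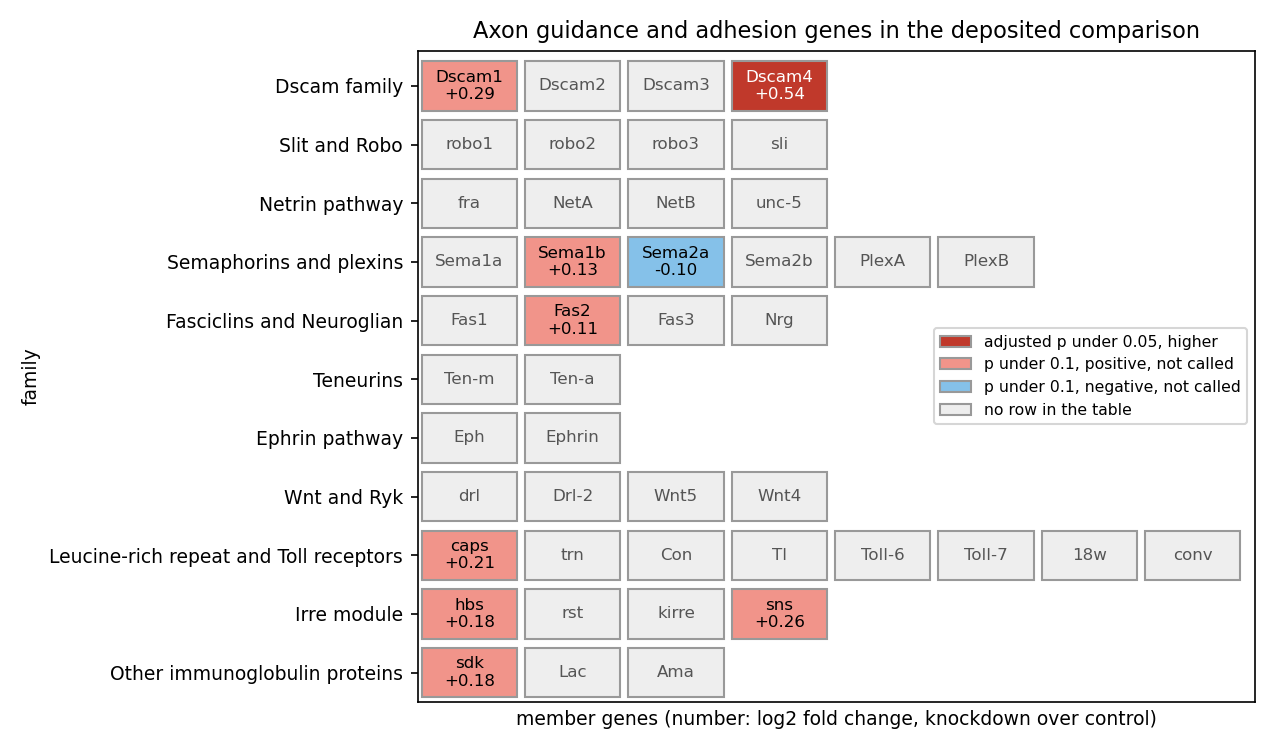
All 45 members by family, each a box; a number below the name is the log2 fold change of knockdown over control in the authors' deposited table. Dscam4 is the only box past an adjusted p of 0.05, 7 others are positive and 1 (Sema2a) is negative without passing, and 36 boxes have no entry.

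The knockdown itself was visible in the libraries. Iswi RNA stood at 24.6% of the control level in the authors' deposited table, a log2 fold change of -2.03 with a standard error of 0.06 worked out from its p. No values of single libraries were used here, and how deeply each was sequenced is unknown. The table gives a mean normalised count over all libraries and a fold change per gene. Group means were worked out from these and the 3 and 4 libraries of the groups, reading the fold change as a ratio of group means. In whole tissue a change in the number of expressing cells and a change in RNA per cell cannot be told apart.

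Among the 9 listed members, Dscam4 had the highest fold change, and Dscam1 and sns (0.29 and 0.26 in the authors' deposited table) came next with overlapping 95% intervals. Dscam4, a transmembrane immunoglobulin-family protein, had a mean normalised count of 2465 in the authors' deposited table. Reading its fold change as a ratio of means puts it at 1960 in the control libraries and 2844 with the knockdown. The log2 fold change of Dscam4 was 0.54 in the authors' deposited table (DESeq2 adjusted p 6.66e-05, implied standard error 0.11). On a linear scale that is 1.45-fold, with a 95% interval from 1.25 to 1.68. By p, Dscam4 was number 128 in the authors' deposited table. The gene (FBgn0263219) spans 8238647 to 8282398 on the plus strand of chromosome 3L in build BDGP6, with 5 annotated transcripts. CG7213 lies inside it on the opposite strand and shares 0 exonic bases with it.

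Dscam1, whose very many alternatively spliced forms let neurites of a cell recognise and avoid each other, is the other listed Dscam. It had a mean normalised count of 9071 in the authors' deposited table, the highest of the 9, which corresponds to 8046 in controls and 9839 with the knockdown. Its log2 fold change in the authors' deposited table was 0.29 (standard error 0.10 from its p), which is 1.22-fold with a 95% interval from 1.07 to 1.40. The adjusted p of Dscam1 was 0.0673 in the authors' deposited table (DESeq2), so it did not pass. Its p of 0.00354 compares with 0.0023, the largest p that was called in the authors' deposited table. The 95% intervals of Dscam4 and Dscam1 overlap, and the difference between their changes was not tested. The values are per gene and hold nothing on the choice among Dscam1 exons. Dscam1 (FBgn0033159, chromosome 2R, 7317924 to 7381899, minus strand) shares 743 exonic bases with the antisense RNA gene asRNA:CR45129, whose mean count in the authors' deposited table was 1.13. It shares another 278 with asRNA:CR44071, which has no entry. Dscam2 and Dscam3, the other two paralogs of the family, have no entry.

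**Figure D2:**
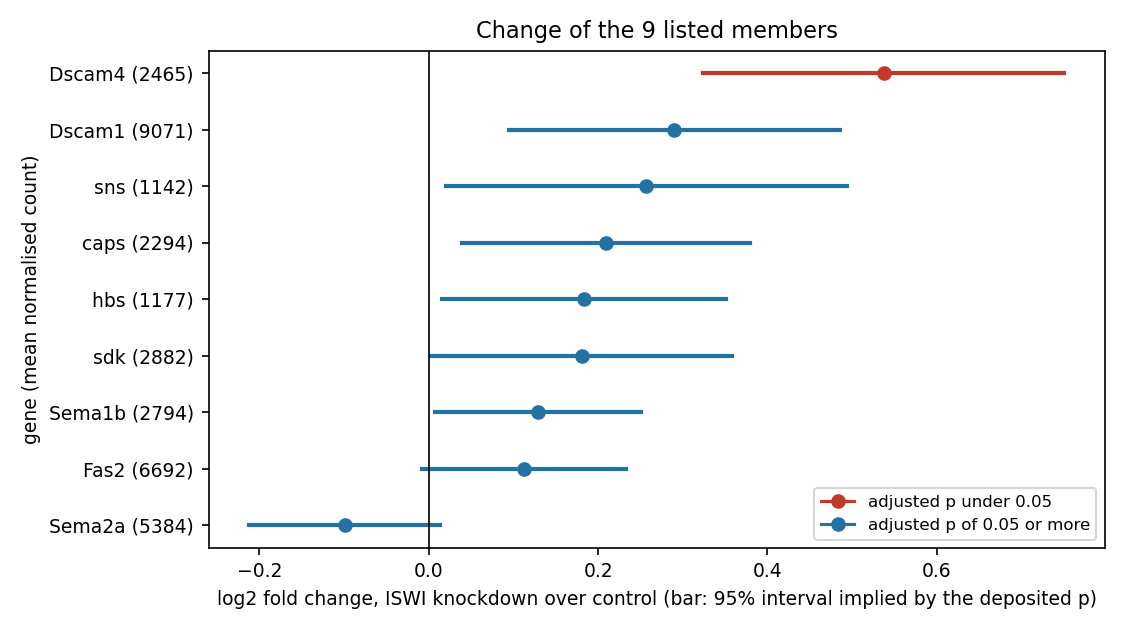
Log2 fold change of knockdown over control for the 9 listed members in the authors' deposited table (points), with 95% intervals worked out from its p (bars) and mean normalised counts in brackets. The interval of Dscam4 runs from 0.32 to 0.75, and those of Fas2 and Sema2a include 0.

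Among guidance ligands, the 2 listed semaphorins lay on opposite sides of 0 and neither passed. Sema1b, a transmembrane semaphorin, had a log2 fold change of 0.13 in the authors' deposited table (DESeq2 adjusted p 0.297, implied standard error 0.06), with implied means of 2652 in controls and 2900 with the knockdown. Sema2a, a secreted semaphorin that acts through PlexB, was at -0.10 in the authors' deposited table (DESeq2 adjusted p 0.432, implied standard error 0.06), with implied means of 5596 and 5225. It is the only listed member below 0. The other two semaphorins, Sema1a and Sema2b, and the receptors PlexA and PlexB have no entry. Slit (sli) and its receptors robo1, robo2 and robo3 have none either, nor have the netrins NetA and NetB with the receptors fra and unc-5. The same holds for Eph and Ephrin, and for the Wnt ligands Wnt4 and Wnt5 with the Ryk-family receptors drl and Drl-2. The midline, ephrin and Wnt systems of the list are therefore not described by any value here.

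Among adhesion proteins of the immunoglobulin family, sns (sticks and stones) and hbs (hibris) are nephrin-like proteins that bind kirre and rst on neighbouring cells. The authors' deposited table gave sns a log2 fold change of 0.26 (DESeq2 adjusted p 0.279, implied standard error 0.12), with implied means of 1028 and 1228. In the authors' deposited table hbs was at 0.18 (DESeq2 adjusted p 0.272, implied standard error 0.09), with implied means of 1093 and 1241. The partners kirre and rst, annotated on opposite strands with rst inside the span of kirre, have no entry. sdk (sidekick) was at 0.18 in the authors' deposited table (DESeq2 adjusted p 0.325, implied standard error 0.09), with implied means of 2678 and 3036. It shares 256 exonic bases with CG13362 on the opposite strand, which has no entry, and the use of strand in counting is unknown. Fas2, the NCAM-like protein of axon bundles and mushroom bodies, was at 0.11 in the authors' deposited table (DESeq2 adjusted p 0.395, implied standard error 0.06), with implied means of 6396 and 6914. None of these 4 passed. Fas1, Fas3, Nrg, Lac and Ama have no entry.

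Of the 8 leucine-rich repeat and Toll-like members, caps (capricious, which matches photoreceptor and motor axons to targets) is the listed one. The authors' deposited table put it at 0.21 on the log2 scale (DESeq2 adjusted p 0.179, implied standard error 0.09), with implied means of 2106 and 2435. Its relative trn, and Con, conv, Tl, Toll-6, Toll-7 and 18w, have no entry, and neither have the teneurins Ten-m and Ten-a.

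The listed members were abundant transcripts. Their mean normalised counts ran from 1142 (sns) to 9071 (Dscam1) in the authors' deposited table, with a median of 2794 against 558 for all listed genes. The median size of the log2 change, sign ignored, was 0.18 for listed members and 0.26 for all genes of the authors' deposited table. It was 0.16 for other listed protein-coding genes at the members' mean counts, and 0.18 at their mean counts and spans, so the members' changes were about as large as those of like genes. At 1000 to 5000 counts the smallest log2 change listed there was 0.09 and the smallest called 0.15. Levels between genes can be compared per length. Sema2a had 1291 normalised counts per kb of exon in the authors' deposited table, Fas2 916, Sema1b 612, caps 474, Dscam1 342, Dscam4 312, sdk 301, hbs 215 and sns 131. For Dscam1 that length counts its alternative exons, many of which a given transcript lacks.

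**Figure D3:**
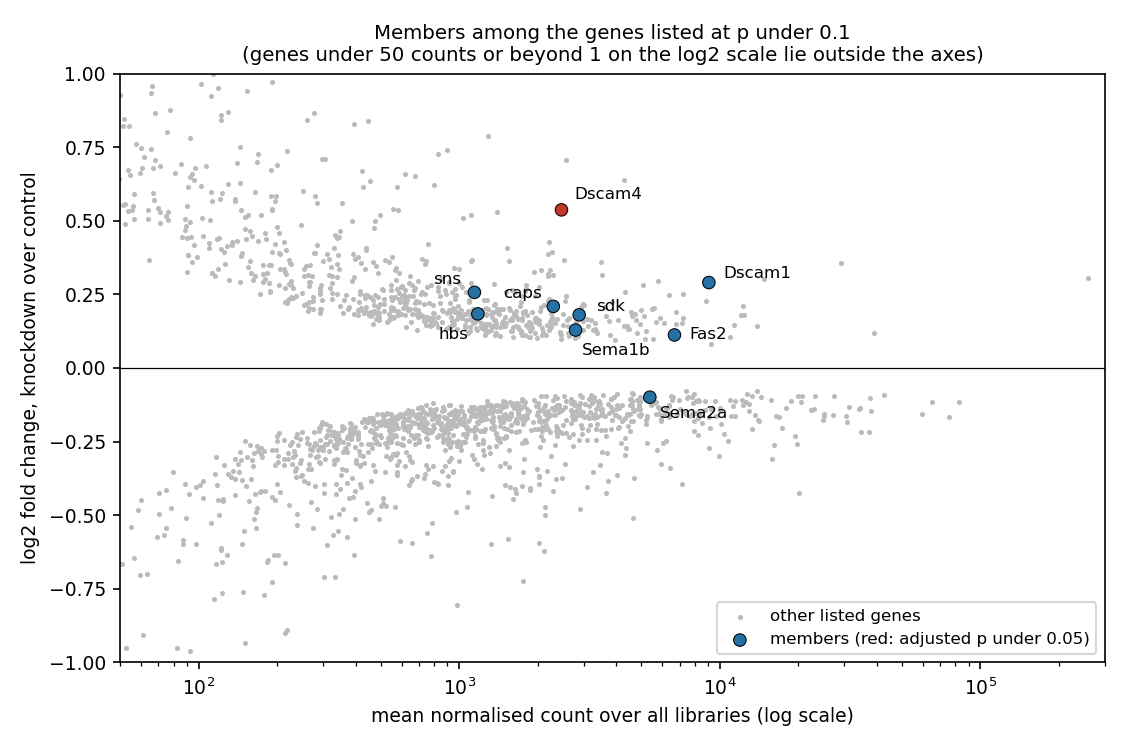
Log2 fold change against mean normalised count (log scale) in the authors' deposited table; grey points are other listed genes, and 539 genes under 50 counts or beyond 1 on the log2 scale are outside the axes. The empty band around 0 reflects the limit of p under 0.1, and Dscam4 and Dscam1 lie above most listed genes of like count.

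Among the 100 listed genes nearest in mean count to Dscam4, 1 had a change of larger size in the authors' deposited table, and 95 had a smaller implied standard error. For Dscam1 these numbers were 5 and 98. The implied standard error of sns was larger than that of 100 of its 100 neighbours in the authors' deposited table, that of sdk larger than 94 of 100 and that of caps larger than 84 of 100. For hbs, Fas2, Sema1b and Sema2a it was larger than 77, 59, 43 and 34 of 100. The deposited p of several members thus implies more spread than for other listed genes of like count. Because only genes with p under 0.1 are listed, a larger change can carry a larger implied standard error. The ranks by standard error are therefore not independent of the ranks by size of change. These neighbours were not matched on gene span. At the members' mean counts the median implied standard error of other listed protein-coding genes was 0.067 under 5 kb. It was 0.082 from 20 to 50 kb, beside 0.109 for Dscam4, 0.085 for hbs and 0.058 for Sema2a in that class. From 50 kb up it was 0.080, beside 0.121 for sns, 0.0995 for Dscam1, 0.091 for sdk, 0.087 for caps and 0.062 for Fas2.

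All 9 listed members are long genes. They span 10.7 to 73.2 kb from first to last exon, with a median of 51.0 kb, against 26.1 kb for the 36 without an entry and 2.16 kb for all 13986 annotated protein-coding genes. The longest members have no entry, up to 394 kb for kirre, and 27 of the 36 span 10 kb or more. Length went with the sign of the fold change among other listed genes, while calls were more often lower in every span class. At the mean counts of the listed members, 76 of 371 other protein-coding genes under 5 kb were positive in the authors' deposited table (20.5%). From 20 to 50 kb it was 39 of 60, and from 50 kb up 12 of 19 (63.2%). Among the same genes 14 were called higher and 63 lower under 5 kb. From 20 to 50 kb, the class of Dscam4, 0 were called higher and 5 lower, and from 50 kb up 1 higher and 6 lower. Spearman's rho between span and log2 fold change was 0.25 over 665 such genes, which are not independent replicates and share their libraries. With both mean count and span in the range of the listed members, 82 of 136 other genes were positive (60.3%), with a median log2 fold change of 0.14 in the authors' deposited table. The 8 of 9 for the members stand beside that 60.3%, not beside the 48.4% over all listed genes.

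**Figure D4:**
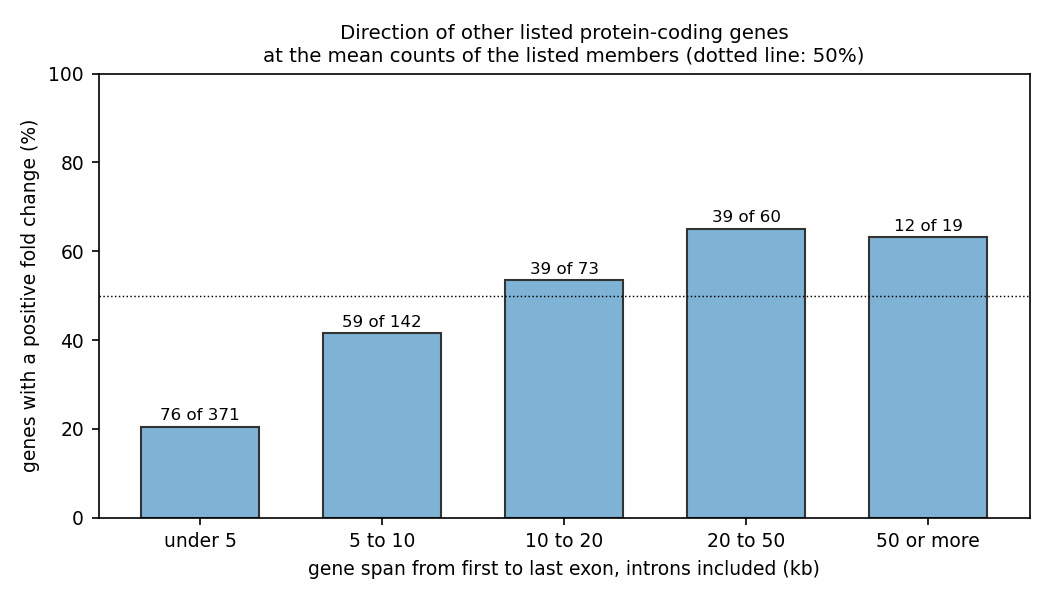
Share of other protein-coding genes with a fold change above 0 in the authors' deposited table (bars, in %), by gene span in kb, at mean counts from 1142 to 9071. The share is 20.5% under 5 kb and 63.2% from 50 kb up, and numbers above bars give positive genes of all genes in the class.

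Of those 136 genes the authors' deposited table has 5 called higher and 16 called lower. The 5 higher ones, named after their values were seen, were nemy, l(2)gl, Xrp1, dikar and Mmp2. A log2 fold change as high as that of Dscam4 was found in the authors' deposited table for 2 of the 136, the hemocyte genes Hml and Ppn, neither of which passed.

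Other genes of the guidance and adhesion pathways, in 8 lists of 132 genes of which 3 names matched no annotated gene, gave 0 calls at an adjusted p under 0.05 (DESeq2), where 4.65% of all tested genes were called. The authors' deposited table holds 28 of the 132 (21.2%), near the 21.5% of all tested genes that it holds, so the number listed shows nothing particular to these lists. Of the 28, 22 were positive and 6 negative, with a median log2 fold change of 0.17. For reference, the median was 0.14 for the genes within the members' ranges of count and span, of which 60.3% were positive, and -0.10 for all listed genes. Neither set is matched to the 28, whose mean counts ran from 43 to 16379 and whose spans were not compared. An excess of positive values is therefore not shown. At an unadjusted p under 0.05 there were 13 of the 28, all of which had entered by a p under 0.1. The share of all tested genes at the lower limit was not worked out, so that count is not read as a result. An adjusted p under 0.1, which 6.38% of all tested genes and Dscam4 and Dscam1 among the members reached, was reached by ft, Sdc, nrm and fred. The large cadherin ft (fat) was at 0.32, Sdc (Syndecan, a heparan sulfate proteoglycan that assists Slit signalling) at 0.23, and nrm (neuromusculin) and fred at 0.33 and 0.30 in the authors' deposited table. The following counts by list are read against the 21.5% of tested genes listed and the 10.2% listed with a positive value, and no list was tested. Of 16 cadherins 5 were listed and 5 of these were positive in the authors' deposited table, namely ft, Cad88C, kug, CadN2 and Cad99C, from 0.17 to 0.78. Of 15 integrin and matrix genes 6 were listed and 6 were positive in the authors' deposited table, from 0.12 for mys (the beta integrin) to 1.16 for Ppn. Of 21 other neural immunoglobulin and partner proteins 5 were listed, from 0.10 to 0.33, all positive in the authors' deposited table.

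Of 29 genes of guidance signal transduction inside the growth cone 3 were listed in the authors' deposited table, and none passed. There tsr (cofilin) was at -0.16, the GTPase Rac2 at -0.17 and RhoGEF64C at 0.53. Of 6 receptor phosphatases 0 were listed. Of 12 genes of receptor trafficking and modification Sdc and tok were listed, and tok, a secreted protease of motor axon guidance, was at 0.22 in the authors' deposited table. Of 20 other leucine-rich repeat genes 3 lay above and 2 below 0 in the authors' deposited table, from -0.26 for kek4 to 0.16 for kek1, and none passed. The Wnt ligand wg and the receptor gene fz3 were at -0.31 and -0.28 in the authors' deposited table, 2 of 13 other Wnt genes, and neither passed.

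**Figure D5:**
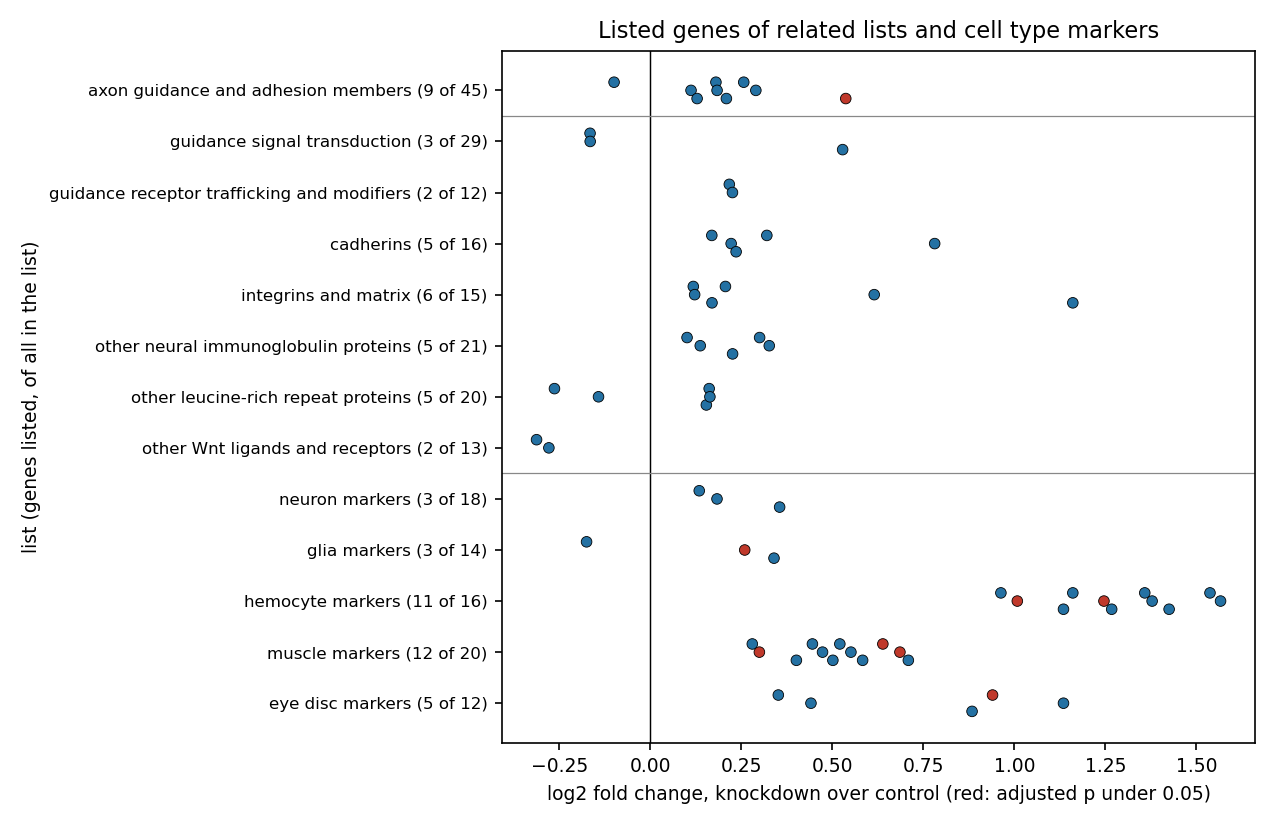
Log2 fold change of each listed gene (points; red has an adjusted p under 0.05) in the authors' deposited table, by list, with the listed number of all genes in brackets. Dscam4, at 0.54, is the red point in the top line; hemocyte markers lie between 0.96 and 1.57, far to the right of the members.

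Listed markers of hemocytes, muscle and eye disc had fold changes above 0, as most listed members had, though most of these markers did not pass. The authors' deposited table lists 68.8% of the hemocyte, 60.0% of the muscle and 41.7% of the eye disc markers, against 21.5% of all tested genes. Median mean counts of these listed markers were 151, 152 and 90, far below the members. Of all listed genes 76.6% under 50 counts and 63.5% from 50 to 200 were positive. At the members' mean counts it was 33.8% of other listed protein-coding genes. Of all tested genes 10.2% were listed with a positive value and 2.06% were called higher. Of 16 hemocyte markers 11 were listed and 11 were positive in the authors' deposited table, with a median log2 fold change of 1.27, and 2 (NimC1 and Pxn) passed. Muscle markers were positive for 12 of 12 listed genes out of 20 in the authors' deposited table, with a median of 0.51 and 3 calls (bt, Unc-89 and TpnC47D). Of 12 eye disc markers 5 were listed, all positive in the authors' deposited table, and gl passed. sns, hbs and kirre also act in muscle founder and fusion-competent cells. Ppn is on both the matrix and the hemocyte list, and lz is counted on both the hemocyte and the eye disc list. Of 18 neuron markers 3 were listed (Rbp9, ChAT and Syx1A), from 0.13 to 0.36 in the authors' deposited table, and 0 passed an adjusted p of 0.05 (DESeq2). At an unadjusted p under 0.05 there was 1, which is not read as a result, with no share of all tested genes worked out for that p. Of 14 glia markers the authors' deposited table lists 3, of which bnb passed at 0.26, and Gli at 0.34 and Mdr65 at -0.17 did not. Summed marker levels per group need values per library, and the part of blood, muscle or eye tissue in the members' values was not tested.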

How the data were processed

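RNA was sequenced from 7 libraries, 3 control and 4 knockdown, as single reads of 100 bases from a strand-specific kit, per the labels' protocols. The submitters' processing notes name STAR 2.5.0b, build BDGP6 and DESeq2. The counting of reads to genes, and its use of strand, are not given in the sources used here. Overlapping genes are uncertain for that reason. The authors' deposited table gives, per the file headers, a mean normalised count (a signal, counts divided by size factors, mean of all libraries). It also gives the log2 fold change, p-value and adjusted p-value the authors deposited, and gene length in bases. Whether fold changes were shrunken is not stated.

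All p are under 0.1. Adjusted p-values follow the Benjamini-Hochberg rule over 10775 tests, and 54 further genes with mean counts up to 2.43 have an adjusted p of 1 and were taken as untested. Standard errors were worked out from fold change and p read as a Wald test. They are the authors' error. The arithmetic for these standard errors and for the number of tests was checked on simulated data made with the same rules. That check cannot show whether the deposited p follow a Wald test or whether fold changes were shrunken. No model was refitted.

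Members were matched by symbol, all 45 were in the Ensembl annotation of BDGP6, and the 9 listed ones had the same coordinates there. Spans, exons and overlaps come from that annotation. The members, the other gene lists and the rules were chosen with earlier results of these data known. The rule for named genes took every listed member, and allowed all calls of each other list and at most its 3 smallest p. The cadherins named go beyond that rule, and some genes that it allowed are not named. The replicates are described as biological, pools of 40 or more brains. Python 3.11.15, pandas 2.3.3 and scipy 1.17.1 were used.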

Additional observations from a re-analysis of the deposited data

How the results depend on the processing

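At an adjusted p threshold of 0.1 the number of members called was 2, Dscam4 and Dscam1, against 1 at 0.05. It was 1 at a threshold of 0.01, with genes under a mean count of 50 left out, and with the adjustment recomputed. With p under 0.05 only, 7 members were listed and 7 were positive, without Fas2 and Sema2a. The share of all tested genes at that p was not worked out, so these counts are not read as a result about the members. Matching by current gene ID gave 8 listed and 7 positive, because hbs carries an older identifier in the table. Reading the deposited p as a t test on 5 degrees of freedom gave implied standard errors of 0.165 to 0.804 times those reported. Leaving out each replicate in turn was not run, because values per library were not used here. No paired analysis was possible because the deposited comparison has no values per library, so that replicate numbers could not be used. Depth per library is unknown, and small changes are seen here only where p fell under 0.1.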
